A study of Homo sapiens with 6 samples.

Results

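The expression of 39 imprinted genes was examined in 3 non-small cell lung cancer (NSCLC) cell lines before and after knockdown of the long noncoding RNA MALAT1. The genes were taken by symbol from the 46427 rows of the gene table, and all 39 were found. They lie at 18 imprinted loci and comprise most of the widely studied human imprinted clusters. An imprinted gene is expressed mainly from the copy inherited from 1 parent, because the egg or the sperm leaves DNA methylation at a control region and the mark is kept through cell division. Many of these genes act on fetal and placental growth, and loss of an imprint or loss of expression is a recurrent change in tumor cells. Read counts per gene do not separate the parental copies, so the values below are total levels and say nothing of which copy was expressed.

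RNA-seq was performed on total RNA of 6 cultures. H460, H1299 and A549 are lung tumor cell lines, each derived from 1 tumor, and each had 1 control library and 1 library of cells transfected with siRNA against MALAT1 (si-MALAT1). The controls were described as non-treated in the sample labels, while the methods also name a si-Control treatment and do not state which of them was sequenced. With 1 library per line and condition, no replicates stand behind a change within a line, and since each line was a separate culture, a difference between lines and a difference between cultures cannot be told apart. In bulk RNA, fewer expressing cells and less RNA per cell cannot be told apart either.

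The libraries held between 42506818 and 68515992 counted reads, the A549 libraries being the shallower. MALAT1 was lower in each library labelled si-MALAT1, with log2 fold changes between -2.32 and -2.96 (edgeR adjusted p = 0.038). Of 5 epithelial markers all had reads in each line, with KRT8 between 11408 and 113159 reads, whereas EPCAM had 23 to 485 reads. CDH1 was abundant only in the A549 libraries (4693 to 7373 reads), its counts elsewhere being 2 to 13. KRT19 was abundant only in the H460 libraries (33570 to 44567 reads), its counts elsewhere being 17 to 121. Of 5 lung lineage markers, SFTPB and SCGB1A1 had 0 reads in all 6 libraries and NKX2-1 had reads in H1299 only (28 and 30). NAPSA had 12 to 131 reads, with the most in A549 (76 and 131), and SFTPC had 0 to 11 reads. The 3 mesenchymal markers were detected in each line, VIM between 33049 and 227383 reads, and the blood cell marker PTPRC had 0 reads in all 6 libraries. CDKN2A, described as deleted in H460 and A549, had 0 reads in both lines and 2938 and 2679 reads in H1299.

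Promoter sequences are shown for 3 loci at which a promoter carries the inherited mark, and for an annotated start of H19. RefSeq promoter windows, which run from 250 bases before to 50 bases after an annotated start on GRCh38.p14, were found for 25 of the 39 genes, with SLC22A18 listed under its newer symbol SLC67A1. The other genes are IGF2, KCNQ1OT1, KCNQ1, CDKN1C, PHLDA2, MEG8, DLK1, PEG10, SGCE, NNAT, GNAS-AS1, PEG3, PEG13 and TRAPPC9. The motif TGCCGC, which the imprint-protecting zinc finger protein ZFP57 binds when methylated, was searched on both strands (GCGGCA being the reverse complement). Capitals mark each match, and in MEST the first run in capitals holds a match on each strand that overlap each other. The SNURF/SNRPN window (chr15:24954737-24955036, plus strand) lies at the imprinting center of the Prader-Willi region and is listed for both genes. The MEST window (chr7:130491835-130492134, plus strand) belongs to the imprinted start of MEST, and the PLAGL1/HYMAI window (chr6:144008210-144008509, minus strand) is shared by both genes. The H19 window (chr11:2001217-2001516, minus strand) belongs to an annotated start of H19. Its position relative to the control region of IGF2 and H19, where CTCF binds the unmethylated maternal copy, was not examined.
SNURF/SNRPN: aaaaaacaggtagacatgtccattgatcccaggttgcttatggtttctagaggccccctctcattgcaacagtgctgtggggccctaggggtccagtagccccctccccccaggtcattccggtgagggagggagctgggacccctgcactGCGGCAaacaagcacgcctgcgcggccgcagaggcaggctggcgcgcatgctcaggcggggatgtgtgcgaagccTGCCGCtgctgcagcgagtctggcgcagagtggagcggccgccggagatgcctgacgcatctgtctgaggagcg
MEST: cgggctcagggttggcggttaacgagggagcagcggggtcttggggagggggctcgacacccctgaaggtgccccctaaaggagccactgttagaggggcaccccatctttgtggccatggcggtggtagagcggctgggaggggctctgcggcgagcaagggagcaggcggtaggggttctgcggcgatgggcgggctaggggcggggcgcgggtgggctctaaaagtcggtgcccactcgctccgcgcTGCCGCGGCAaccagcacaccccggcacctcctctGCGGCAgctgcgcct
PLAGL1/HYMAI: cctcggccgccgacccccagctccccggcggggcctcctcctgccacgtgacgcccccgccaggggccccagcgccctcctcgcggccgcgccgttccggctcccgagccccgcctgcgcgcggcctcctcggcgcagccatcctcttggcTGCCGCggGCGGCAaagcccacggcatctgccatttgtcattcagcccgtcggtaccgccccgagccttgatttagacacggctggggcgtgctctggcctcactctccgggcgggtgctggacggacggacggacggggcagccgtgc
H19: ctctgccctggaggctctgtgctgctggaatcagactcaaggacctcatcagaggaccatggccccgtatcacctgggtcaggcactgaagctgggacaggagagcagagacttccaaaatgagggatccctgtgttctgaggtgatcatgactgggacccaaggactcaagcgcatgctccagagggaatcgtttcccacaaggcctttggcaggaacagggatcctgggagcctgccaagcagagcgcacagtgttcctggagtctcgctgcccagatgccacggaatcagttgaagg
The SNURF/SNRPN window held 2 matches and 18 CpG, the MEST window 3 matches and 25 CpG, the PLAGL1/HYMAI window 2 matches and 39 CpG, and the H19 window 0 matches and 6 CpG. At least 1 match was found in 21 of the 53 distinct windows of the 25 genes (39.6%), some of which overlap each other, and in 16.7% of the 34943 distinct windows of all genes. The median CpG number per window was 21.0 for the imprinted genes and 14.0 for all genes. A match in these letters is not evidence of binding. ZFP57 itself had 0 reads in all 6 libraries, and ZNF445, a zinc finger protein with a related role in protecting imprints, had 864 to 1896 reads.

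Levels between genes were compared as TPM, which is scaled for transcript length. GNAS, which encodes the stimulatory G protein alpha subunit, had the highest TPM of the imprinted genes in every library (159 to 430). IGF2R, a receptor that takes up IGF2 for degradation, followed in H460 control cells at 61.1 TPM. In both H1299 libraries, SGCE, encoding the membrane protein epsilon-sarcoglycan, and PEG10, a gene derived from a retrotransposon, took the next places, SGCE at 68.7 and 78.6 TPM and PEG10 at 54.2 and 78.0 TPM. RTL1 and NNAT had 0 reads in all 6 libraries. RTL1 is a retrotransposon-derived gene of the placenta, and NNAT encodes a small neuronal membrane protein. A mean of at least 50 reads over the 2 libraries of a line was reached by 22 of the 39 genes in H460, 24 in A549 and 26 in H1299. Among the 9 genes with a mean under 50 reads over the 6 libraries were RTL1, NNAT and HYMAI, a noncoding RNA with 5 to 79 reads, and the remaining 6 (KCNQ1, MEG9, DLK1, MAGEL2, MESTIT1 and DIRAS3) had 0 to 39 reads.

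**Figure D1:**
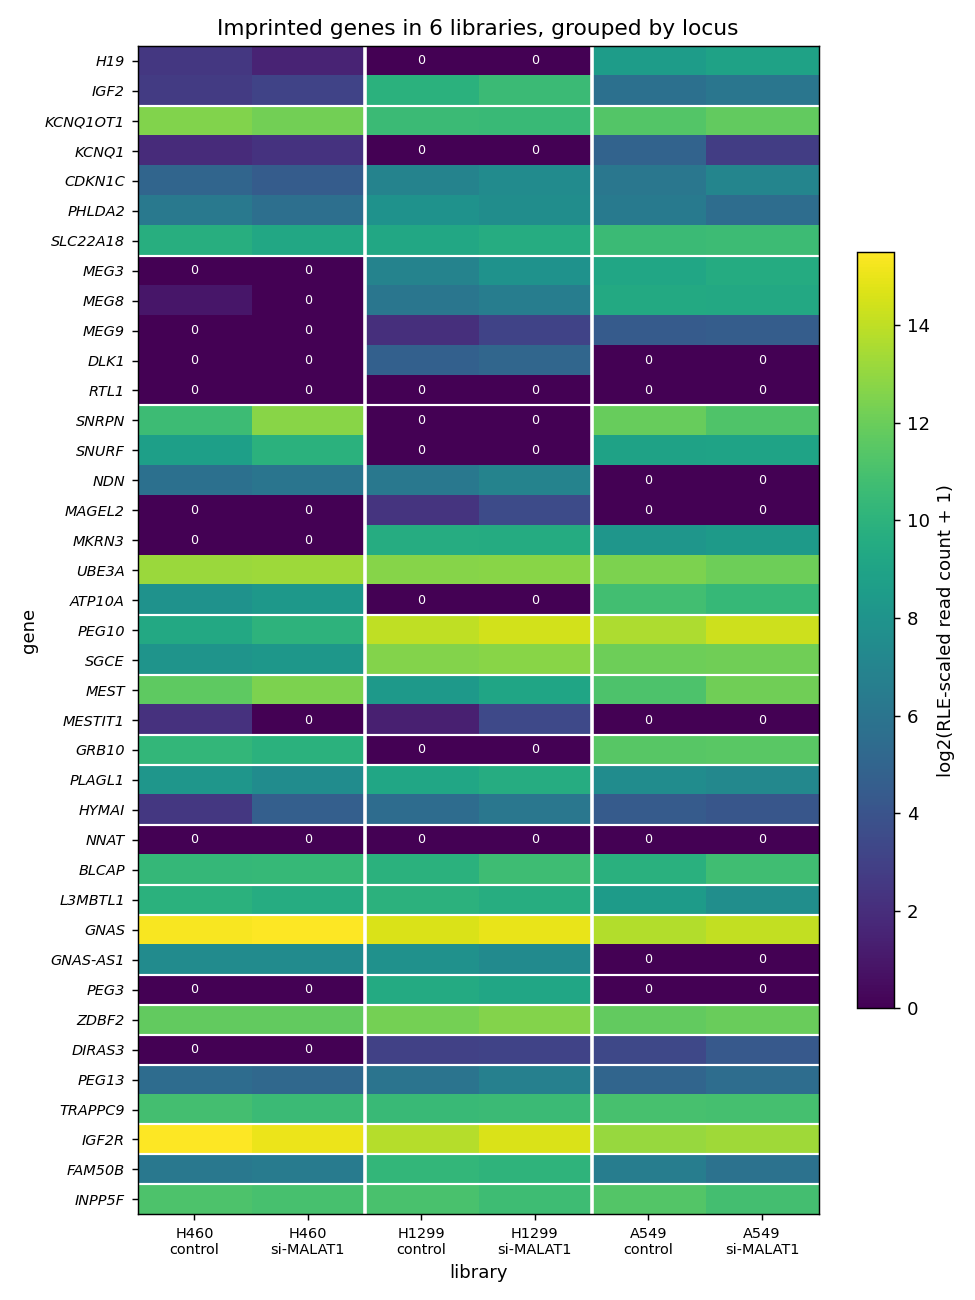
Heat map of log2(RLE-scaled read count + 1) for the 39 imprinted genes (rows, grouped by locus between white lines) in the 6 libraries (columns, control and si-MALAT1 of H460, H1299 and A549), where 0 marks a library with no reads. The control and si-MALAT1 libraries of a line look alike, while blocks of 0 differ between the lines, such as the MEG3 rows in H460 and the SNRPN rows in H1299.

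The cell lines differed from each other in many imprinted genes, as they did in many genes in all. With edgeR's additive model of cell line and treatment, in which the 2 libraries of a line act as its replicates, 34 of the 39 genes could be tested. H1299 was higher than H460 in 13 of them (38.2%) and lower in 10 (29.4%). Of the 21771 genes tested, 25.9% and 24.8% were higher and lower. A549 was higher than H460 in 13 (38.2%) and lower in 7 (20.6%), beside 17.4% and 17.9% of all genes. Against H1299, A549 was higher in 10 (29.4%) and lower in 14 (41.2%), beside 22.8% and 24.4% of all genes. Whether these shares differ from those of all genes was not tested. These 3 contrasts share libraries. The genes with no reads at all in 1 line are described as lower bounds, with the fold computed against 3 counts over the 2 libraries of that line.

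Silence of a gene in 1 line and clear expression in another was frequent. A rule chosen after the values were seen took genes with 0 reads in both libraries of a line and a mean of at least 50 reads in another line. It was met in H460 by 3 of the 31 imprinted genes with such a mean in any line (PEG3, MKRN3 and MEG3), against 4.33% of the 17498 genes with such a mean. In H1299 it was met by 5 (GRB10, SNRPN, SNURF, ATP10A and H19), against 3.16% of genes, and in A549 by 3 (NDN, PEG3 and GNAS-AS1), against 4.82%. In at least 1 line it was met by 10 of the 31 imprinted genes, against 9.14% of genes. Neighboring genes such as SNRPN and SNURF share reads and transcripts and are not independent members of such a count.

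At the IGF2-H19 locus on chromosome 11, the 2 genes were expressed in different lines. IGF2 encodes the fetal growth factor insulin-like growth factor 2 and is expressed from the paternal copy, and H19 is a noncoding RNA of the maternal copy that is the precursor of a microRNA. IGF2 had 6 and 8 reads in H460 (control and si-MALAT1), 39 and 55 in A549, and 1212 and 1752 in H1299. H19 had 5 and 2 reads in H460, 0 in both H1299 libraries, and 290 and 416 in A549. Thus the line with the most IGF2 reads had none of H19, the line with the most H19 reads had a low IGF2 level, and both were near 0 in H460. IGF2 in H1299 was 184-fold the level in H460 and 20.9-fold the level in A549 (edgeR adjusted p = 2.9e-05 and 8.5e-05). H19 in A549 was 133-fold the level in H460 and at least 355-fold higher than in H1299 (edgeR adjusted p = 0.00089 and 0.00044). As TPM, IGF2 was at 4.09 and 7.68 in H1299 and H19 at 3.52 and 4.54 in A549. Of the exon bases of IGF2, 73.4% are shared with the INS-IGF2 readthrough gene on the same strand, and 33.2% of those of H19 with HOTS on the opposite strand, and how the reads of shared exons were divided is not stated in the sources used here.

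Next to it, the KCNQ1-CDKN1C cluster was expressed in all 3 lines. KCNQ1OT1 is the noncoding antisense RNA of the paternal copy that silences the cluster's genes in cis. It had 6669 and 4794 reads in H460, 1994 and 2964 in A549, and 1940 and 1707 in H1299, a level 3.61-fold higher in H460 than in H1299 and 1.76-fold higher than in A549 (edgeR adjusted p = 0.00096 and 0.027). Its 2 libraries did not overlap with those of another line after scaling. CDKN1C, the cyclin-dependent kinase inhibitor p57 of the maternal copy, had 35 and 22 reads in H460, 53 and 113 in A549, and 152 and 206 in H1299. CDKN1C was therefore lowest in H460, 5.47-fold under H1299 and 3.83-fold under A549 (edgeR adjusted p = 0.0084 and 0.031), although the call against A549 was lost without a filter on low counts (adjusted p = 0.052). PHLDA2, a maternally expressed gene that restrains placental growth, had 82 and 50 reads in H460, 59 and 38 in A549, and 296 and 222 in H1299. It was 3.42-fold higher in H1299 than in H460 and 3.54-fold higher than in A549 (edgeR adjusted p = 0.0063 and 0.0066). SLC22A18, a transporter of the same cluster, had 927 and 634 reads in H460, 1170 and 1329 in A549, and 774 and 896 in H1299. A549 had 2.11-fold and 2.26-fold the SLC22A18 level of H460 and H1299 (edgeR adjusted p = 0.013 and 0.0068). KCNQ1, which encodes a potassium channel, had 0 to 22 reads.

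The DLK1-MEG3 domain on chromosome 14 was silent as a whole in H460. The maternal copy of this domain makes the noncoding RNAs MEG3, MEG8 and MEG9, and the paternal copy makes DLK1, a membrane ligand related to the Notch ligands, and RTL1. MEG3 had 0 reads in both H460 libraries, 440 and 628 in A549, and 152 and 278 in H1299. MEG8 had 1 and 0 reads in H460, 517 and 542 in A549, and 86 and 107 in H1299. MEG9, DLK1 and RTL1 had 0 reads in both H460 libraries too, so that 1 read was counted over the 5 genes in this line. MEG3 was at least 125-fold higher in H1299 and at least 468-fold higher in A549 than in H460 (edgeR adjusted p = 0.00035 and 0.00028), and A549 was 3.75-fold above H1299 (0.0053). MEG8 in A549 was 8.28-fold the level in H1299 (edgeR adjusted p = 0.0010). A549 thus expressed the 3 maternal RNAs of the domain, MEG9 with 16 and 19 reads, and had 0 reads of DLK1 and RTL1. DLK1 had reads in H1299 only, 33 and 39, and its higher level there passed edgeR's test against H460 and A549 (adjusted p = 0.028 and 0.034) but not that of DESeq2 (adjusted p = 0.17 and 0.20, with ranges over the alternatives of 0.0107 to 0.165 and 0.00887 to 0.2).

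**Figure D2:**
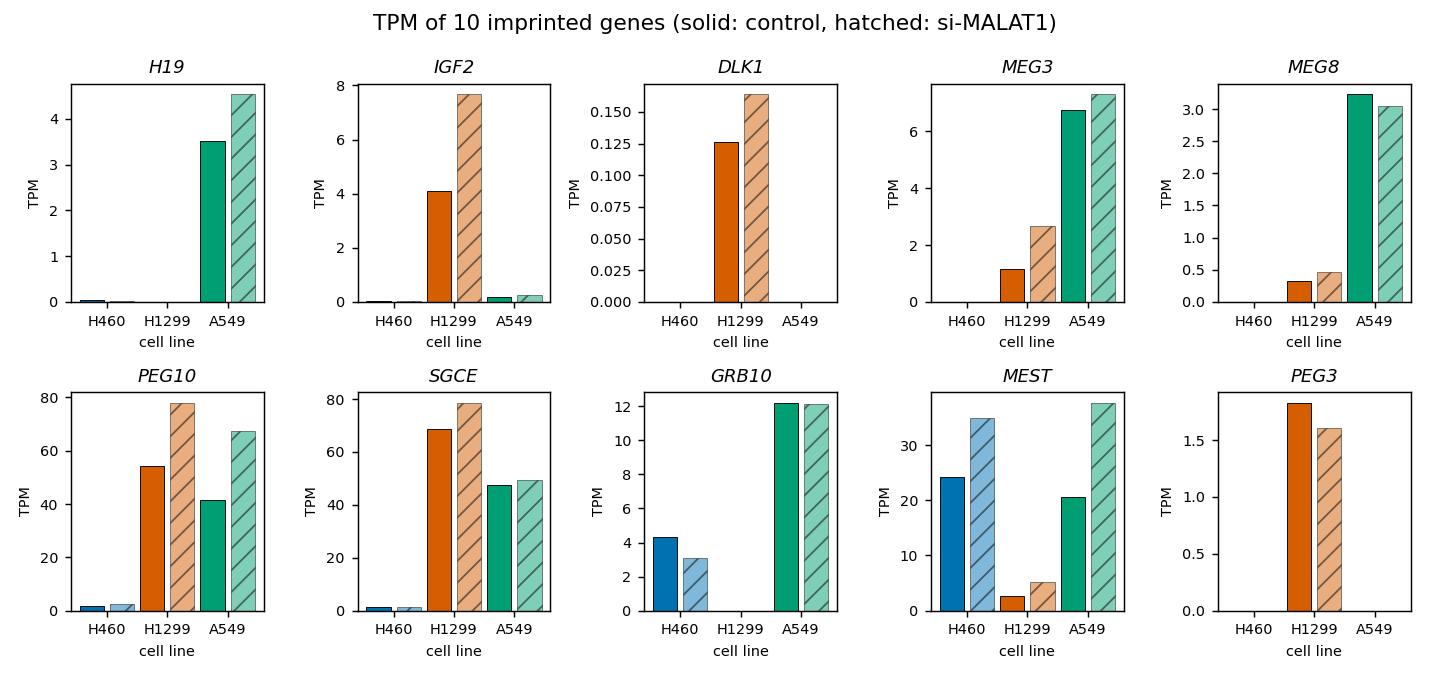
TPM of 10 imprinted genes in the 6 libraries, with solid bars for control and hatched bars for si-MALAT1 and a vertical axis of its own for each gene, starting at 0. H19 and IGF2 were highest in different lines, PEG3 and DLK1 had bars in H1299 only, and PEG10 and SGCE were low in H460 (1.26 to 2.67 TPM).

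In the Prader-Willi/Angelman cluster (chr15:23565674-25865144) each line lacked a different set of genes. SNRPN, encoding the small nuclear ribonucleoprotein SmN, and SNURF, encoding a small protein from the same transcript, are made from the paternal copy under the promoter shown above. SNRPN had 1704 and 7082 reads in H460, 0 in both H1299 libraries, and 2844 and 1994 in A549. SNURF had 455 and 960 reads in H460, 0 in both H1299 libraries, and 373 and 423 in A549. Both genes were thus clearly expressed in 2 lines and not detected in H1299, where SNRPN was at least 3361-fold lower than in H460 and at least 2435-fold lower than in A549 (edgeR adjusted p = 0.0015 and 0.0018). The noncoding host RNA SNHG14, which starts beside SNRPN and runs on through the cluster, was likewise near 0 in H1299, with 3 and 1 reads, against 13662 and 9066 in H460 and 2948 and 4828 in A549. PWAR5, PWAR6 and IPW, further noncoding RNAs of the paternal copy, had 0 reads in both H1299 libraries and 179 to 2691 reads in the other lines.

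The genes upstream of SNRPN did not follow it. MKRN3, encoding a ring finger protein that restrains the onset of puberty, lies 1258 kb before the start of SNRPN and had 966 and 863 reads in H1299, 218 and 286 in A549, and 0 in both H460 libraries. It was at least 531-fold higher in H1299 and at least 221-fold higher in A549 than in H460 (edgeR adjusted p = 9.6e-05 and 0.00024). NDN, encoding the growth suppressor necdin, had 56 and 65 reads in H460, 93 and 139 in H1299, and 0 in both A549 libraries, at least 30.7-fold and 51.2-fold lower than in H460 and H1299 (edgeR adjusted p = 0.0032 and 0.0016). MAGEL2, a relative of NDN that takes part in protein recycling, had reads in H1299 only (5 and 12). H460 was thus without MKRN3 and MAGEL2, A549 without NDN and MAGEL2, and H1299 without SNRPN and SNURF, which are paternally expressed genes, and without ATP10A, given next.

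Of the maternally expressed genes of the cluster, UBE3A, the ubiquitin ligase lost in Angelman syndrome, had 9935 and 9688 reads in H460, 4153 and 3693 in A549, and 8228 and 8013 in H1299. It is imprinted in neurons and expressed from both copies elsewhere, and was the only gene of the cluster's members detected in all 6 libraries. After scaling, H460 was 1.39-fold above H1299 and 1.90-fold above A549 (edgeR adjusted p = 0.043 and 0.0066). The first of these calls was lost without a filter on low counts and without the A549 libraries (adjusted p = 0.065 and 0.069). ATP10A, a phospholipid-transporting ATPase, had 254 and 317 reads in H460, 0 in both H1299 libraries, and 1337 and 1108 in A549. It was at least 218-fold lower in H1299 than in H460 and at least 1230-fold lower than in A549, and 5.63-fold higher in A549 than in H460 (edgeR adjusted p = 0.00025, 0.00013 and 0.0025).

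**Figure D3:**
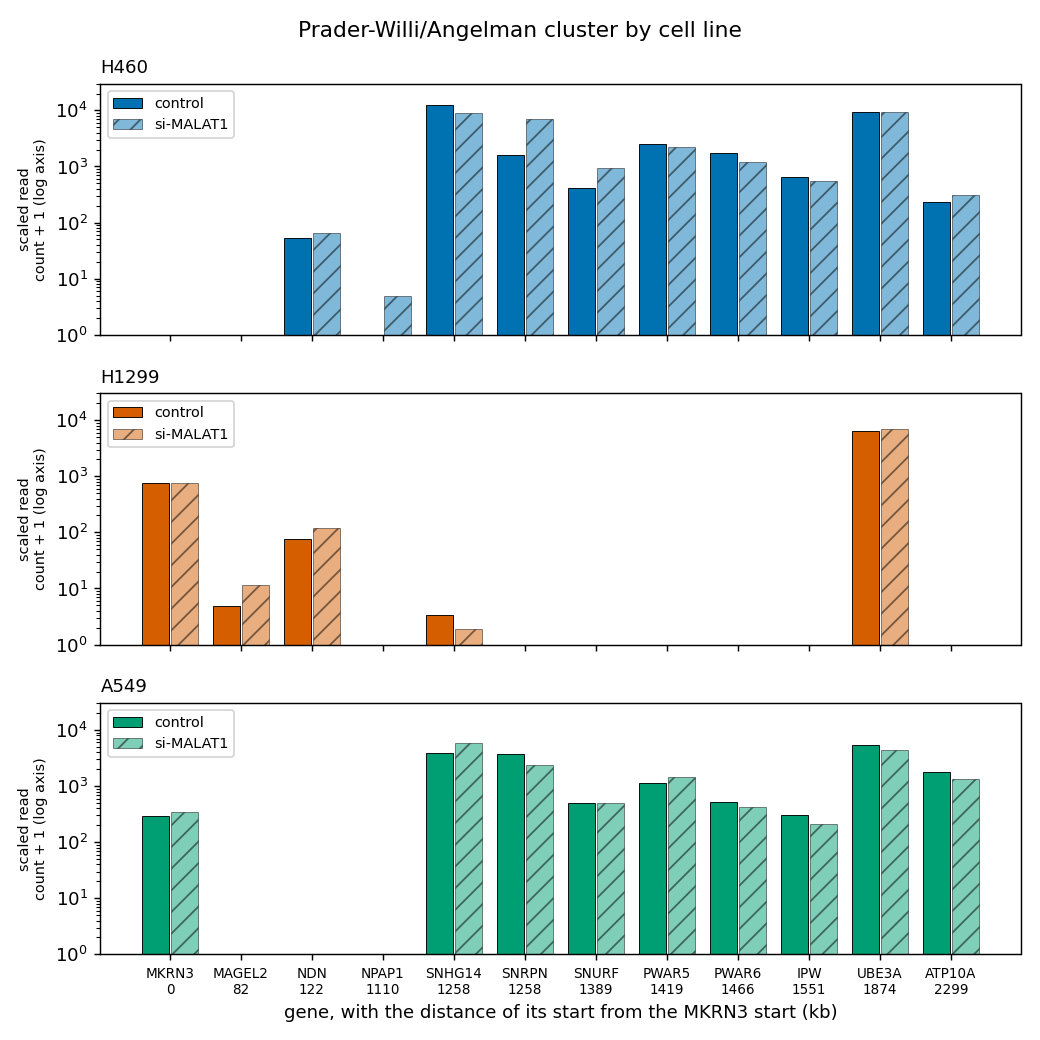
RLE-scaled read count + 1 on a log axis for the 7 imprinted genes of the Prader-Willi/Angelman cluster and 5 further RNAs of the cluster in H460, H1299 and A549, ordered by the distance of their start from that of MKRN3 in kb. Solid bars are control and hatched bars si-MALAT1, and an empty place means 0 reads. The span from SNHG14 to IPW is at or near 0 in H1299, and UBE3A is present in each line.

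PEG10 and SGCE, paternally expressed neighbors on chromosome 7 that are transcribed away from each other from adjacent starts, were low together in H460. PEG10 had 701 and 1070 reads in H460, 9531 and 17250 in A549, and 20575 and 25825 in H1299. SGCE had 275 and 297 reads in H460, 3240 and 3726 in A549, and 7938 and 7989 in H1299. PEG10 in H1299 and A549 was 22.8-fold and 19.9-fold the level in H460 (edgeR adjusted p = 2.3e-05 and 4.8e-05), and SGCE was 24.3-fold and 16.0-fold the level in H460 (2.1e-05 and 4.7e-05). Between H1299 and A549, PEG10 did not pass the test (adjusted p = 0.19) and SGCE was 1.51-fold higher in H1299 (0.011). PPP1R9A, encoding the actin-binding protein neurabin in the same cluster, had 750 and 1077 reads in H460 against 4434 to 11424 in the other lines.

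MEST and GRB10, at other places on chromosome 7, were lowest in H1299. MEST encodes a hydrolase-like protein of mesoderm and is expressed from the paternal copy. It had 3502 and 5583 reads in H460, 1761 and 3731 in A549, and 395 and 649 in H1299, that is 9.99-fold higher in H460 and 7.94-fold higher in A549 than in H1299 (edgeR adjusted p = 3.5e-05 and 6.2e-05). MESTIT1, an antisense noncoding RNA at the MEST promoter, had 0 to 11 reads. GRB10 encodes an adaptor that binds the insulin and IGF1 receptors and restrains growth, and its expressed parental copy depends on the tissue and isoform. GRB10 had 1332 and 968 reads in H460, 0 in both H1299 libraries, and 2162 and 2520 in A549, at least 880-fold and 2356-fold lower in H1299 than in H460 and A549 (edgeR adjusted p = 5.3e-05 and 5.1e-05).

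Of the genes on chromosome 6, PLAGL1, a zinc finger transcription factor that restrains the cell cycle, had 309 and 192 reads in H460, 138 and 128 in A549, and 735 and 888 in H1299, with H1299 2.82-fold and 4.04-fold above the other lines (edgeR adjusted p = 0.0078 and 0.0032). FAM50B, a retrotransposed copy of FAM50A, had 80 and 90 reads in H460, 71 and 48 in A549, and 1517 and 1243 in H1299. It was 14.1-fold higher in H1299 than in H460 and 15.4-fold higher than in A549 (edgeR adjusted p = 0.00022 and 0.00026). IGF2R had 50064 and 34089 reads in H460, 6653 and 8385 in A549, and 17524 and 29005 in H1299. The IGF2R libraries of the lines did not overlap after scaling, and H460 was 2.08-fold above H1299 and 4.25-fold above A549 (edgeR adjusted p = 0.028 and 0.0040), the first call being lost without a filter on low counts (adjusted p = 0.0504). H1299, with the most IGF2 reads, was thus not the line with the most or the fewest IGF2R reads.

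On chromosome 20, GNAS had 44559 and 47196 reads in H460, 10123 and 14592 in A549, and 32299 and 37583 in H1299. GNAS in A549 was 2.82-fold lower than in H460 and 1.87-fold lower than in H1299 (edgeR adjusted p = 0.00067 and 0.0029). Its antisense RNA of the paternal copy, GNAS-AS1, had 192 and 179 reads in H460, 282 and 194 in H1299, and 0 in both A549 libraries, at least 94.0-fold and 105-fold lower than in H460 and H1299 (edgeR adjusted p = 0.00079 and 0.00054). L3MBTL1, encoding a chromatin-compacting protein, had 1024 and 789 reads in H460, 278 and 169 in A549, and 1277 and 918 in H1299. It was 3.08-fold and 3.25-fold lower in A549 than in H460 and H1299 (edgeR adjusted p = 0.0023 and 0.0014). A549 was thus the lowest of the lines for these 3 genes. BLCAP, a gene named for a role in bladder cancer that surrounds NNAT, had 701 to 1903 reads and passed the test in none of the 3 contrasts (edgeR adjusted p = 0.74 to 0.98).

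PEG3, a zinc finger gene of the paternal copy on chromosome 19, was detected in H1299 only. It had 884 and 673 reads there and 0 in the 4 libraries of H460 and A549, at least 452-fold and 344-fold lower (edgeR adjusted p = 0.00055 and 0.00070). ZDBF2, a zinc finger gene on chromosome 2, had 2654 to 7219 reads and was 1.57-fold and 1.45-fold higher in H1299 than in H460 and A549 (edgeR adjusted p = 0.013 and 0.025). On chromosome 8, the noncoding RNA PEG13 had 24 to 121 reads and TRAPPC9, a subunit of a vesicle-tethering complex whose intron holds PEG13, had 1519 to 2002 reads. INPP5F, an inositol phosphatase on chromosome 10, had 1557 to 2666 reads. PEG13, TRAPPC9 and INPP5F passed the test in none of the 3 contrasts (edgeR adjusted p = 0.063 to 0.92). DIRAS3, a small GTPase lost in many ovarian and breast tumors, had 0 reads in both H460 libraries and 7 to 16 in the other lines.

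To ask how the imprinted genes differed after MALAT1 knockdown, the si-MALAT1 library of each line was set against its control. The log2 fold change of the RLE-scaled read count plus 1 was taken within each line, with a 95% Clopper-Pearson interval that covers counting error only. Genes with 0 reads in any library were left out, which kept 17834 genes and 20 of the 39 imprinted genes. The kept genes exclude those that were silent in 1 line, such as SNRPN, H19, MEG3 and GRB10, which are given separately. The median log2 fold change of the 20 genes was -0.10 in H460, 0.12 in A549 and 0.36 in H1299, beside 0.02, 0.01 and 0.02 for all genes. Of the 20 genes, 10 were higher after si-MALAT1 in H460, 12 in A549 and 15 in H1299, where 51.9%, 50.7% and 51.9% of all genes were higher.

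At a fold change of 1.5, the imprinted genes past the threshold differed between the lines. In H460, 3 of 20 were higher (MEST, PEG10 and HYMAI) and 2 lower (PLAGL1 and PHLDA2), where 9.5% and 10.3% of all genes passed. In H1299, 6 of 20 were higher (IGF2, IGF2R, MEST, BLCAP, HYMAI and PEG13) and 0 lower, where 11.7% and 11.4% of all genes passed. In A549, 4 of 20 were higher (CDKN1C, MEST, BLCAP and PEG10) and 3 lower (PHLDA2, L3MBTL1 and FAM50B), where 11.5% and 11.4% of all genes passed. The shares of the 20 genes were 15% and 10% in H460, 20% and 15% in A549, and 30% and 0% in H1299, so that they lay near those of all genes in H460 and A549 and farther from them in H1299, a difference that was not tested. At a log2 fold change of 1.5 in either direction, 1 of 20 passed in H460, which was HYMAI on 5 and 25 reads (2.18, interval 0.99 to 4.15), and 0 in H1299 and A549. The shares of all genes at that threshold were 2.76%, 2.18% and 3.36%.

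MEST was the imprinted gene that passed a fold change of 1.5 in the same direction in all 3 lines. It was 0.75 higher on the log2 scale in H460 (interval 0.69 to 0.82), 0.94 in A549 (0.86 to 1.02) and 0.85 in H1299 (0.66 to 1.03), a mean of 0.85 ± 0.09 (SD, n = 3 cell lines). The RLE-scaled MEST counts were 3238 and 5462 in H460, 2318 and 4443 in A549, and 313 and 563 in H1299, so that the fold change was alike in lines whose MEST level differed widely. Over all genes, 1.19% passed in this way in the higher direction and 1.28% in the lower direction, in which 0 of 20 imprinted genes passed. With log2(TPM + 1), the H460 value of MEST was 0.51 and no longer past the threshold. In edgeR's test paired by cell line, MEST was higher by 0.83 on the log2 scale and in each line but did not pass the correction (adjusted p = 0.073).

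PEG10 came next among genes with a change in 1 direction. Its log2 fold change was 0.71 in A549 (interval 0.67 to 0.75), 0.69 in H460 (0.55 to 0.83) and 0.46 in H1299 (0.43 to 0.49), a mean of 0.62 ± 0.14 (SD, n = 3 cell lines) that did not pass the correction in edgeR's paired test (adjusted p = 0.11). Its neighbor SGCE, on the other side of the shared start region, had log2 fold changes of 0.19, 0.14 and 0.06 in the order H460, H1299 and A549, which is used for all lists of 3 changes here, and PPP1R9A of the same cluster had 0.60, 0.55 and 0.53 (edgeR adjusted p = 0.68 and 0.11). Values of PEG10 and PPP1R9A were thus closer to each other than to SGCE in each line, a difference that was not tested.

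Counted at any size, 7 of the 20 genes were higher in all 3 lines (MEST, PEG10, BLCAP, IGF2, GNAS, ZDBF2 and SGCE), where 21.4% of all genes were. BLCAP was higher by 0.80 in H1299 and 0.88 in A549 on the log2 scale and by 0.06 in H460. As TPM, BLCAP and ZDBF2 were lower after si-MALAT1 in H460 (11.6 to 11.1 and 6.79 to 6.08). For IGF2 the log2 fold changes were 0.43, 0.66 and 0.35, of which the H460 value rests on 6 and 8 reads (interval -1.22 to 2.30) and the A549 interval also includes 0. GNAS had 0.16, 0.35 and 0.38, with intervals that exclude 0 in each line. Lower in all 3 lines were 3 of the 20 genes, where 18.8% of all genes were. These were PHLDA2 with log2 fold changes of -0.62, -0.28 and -0.77, L3MBTL1 with -0.29, -0.34 and -0.86, and INPP5F with -0.20, -0.37 and -0.49. INPP5F shares 12.8% of its exon bases with MCMBP on the opposite strand.

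The paired test called 0 of the 29 imprinted genes it could test, where it called 1 of 19122 genes (0.00523%), MALAT1. At an unadjusted p under 0.05, 7 of the 29 (MEST, PEG10, INPP5F, L3MBTL1, BLCAP, IGF2 and GNAS) and 2863 genes in all (15%) were found. DESeq2 called 2 of the 29, MEST and PEG10 (adjusted p = 2.6e-08 and 4.8e-05), where it called 5.96% of genes. Over the alternative settings the adjusted p ranged from 2.6e-08 to 1 for MEST and from 4.8e-05 to 1 for PEG10, the highest being that without the cell line as a block. The edgeR test has 2 residual degrees of freedom here.

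**Figure D4:**
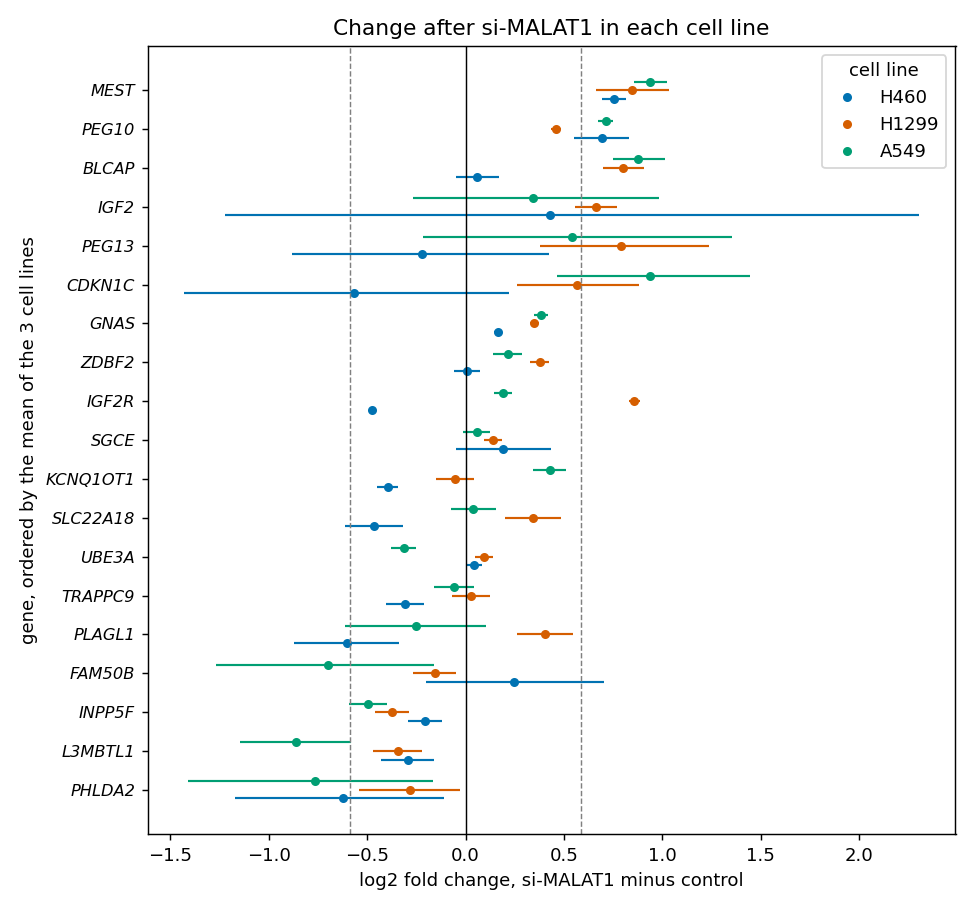
Log2 fold change (si-MALAT1 minus control) of the 19 imprinted genes with at least 1 read in each library and a mean of at least 50 reads, in H460, H1299 and A549, ordered by the mean of the lines. Points are the changes within a line, horizontal bars are 95% counting intervals, and dashed lines mark a fold change of 1.5. MEST lies past the upper dashed line in each line (0.75 to 0.94), and IGF2R lies on both sides of 0 (-0.47 to 0.86).

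Other genes differed in direction between the lines. IGF2R was lower in H460 (-0.47, interval -0.49 to -0.45) and higher in H1299 (0.86, 0.83 to 0.89) and A549 (0.19, 0.14 to 0.24) on the log2 scale. KCNQ1OT1 had -0.39 in H460, 0.43 in A549 and -0.05 in H1299. CDKN1C, in the cluster that KCNQ1OT1 silences, had -0.57, 0.57 and 0.94, of which the H460 interval includes 0. KCNQ1OT1 and CDKN1C were both lower in H460 and both higher in A549, and had opposite signs in H1299, where the KCNQ1OT1 interval includes 0. PLAGL1 had -0.60 in H460, -0.25 in A549 and 0.40 in H1299, and HYMAI, which starts at the same promoter, had 2.18, 0.62 and -0.32 on 5 to 79 reads. FAM50B had 0.25, -0.16 and -0.70.

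SNRPN had log2 fold changes of opposite sign in the 2 lines that expressed it. It was higher by 2.14 on the log2 scale after si-MALAT1 in H460 (interval 2.06 to 2.21) and lower by 0.66 in A549 (-0.66, -0.74 to -0.57). SNURF was 1.16 in H460 (1.00 to 1.32) and 0.04 in A549 (-0.17 to 0.24). SNHG14 had the opposite signs, with -0.51 in H460 and 0.57 in A549. On the same strand, SNRPN shares 51.2% of its exon bases with SNHG14 and 40.1% with SNURF, and SNURF shares 87.6% of its exon bases with SNHG14. The reads of the 3 genes summed to 15821 and 17108 in H460, a log2 fold change of 0.19 (0.16 to 0.23), and to 6165 and 7245 in A549, which is 0.09 higher on that scale (0.04 to 0.14). The sum was thus nearly level where SNRPN and SNHG14 differed, and how the reads of shared exons were divided between the genes was not tested. In the paired test SNRPN did not pass (edgeR adjusted p = 0.69).

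The other genes silent in 1 line had the following values in the lines that expressed them. MEG3 was higher by 1.00 in H1299, with an interval that excludes 0, and by 0.37 in A549 (0.19 to 0.55) on the log2 scale (edgeR adjusted p = 0.37). MEG8 of the same domain had 0.44 in H1299 and -0.08 in A549. H19 in A549 had 0.37 (0.16 to 0.60), near the 0.35 of IGF2 in that line. GRB10 had -0.38 in H460 and 0.08 in A549, and ATP10A had 0.40 in H460 and -0.42 in A549. MKRN3 had -0.03 in H1299 and 0.25 in A549, NDN had 0.29 in H460 and 0.70 in H1299, and GNAS-AS1 had -0.02 in H460 and -0.41 in H1299. PEG3 in H1299 had -0.26.

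Further lists were examined for the genes around imprinting. Over all 19122 genes of the paired test, 15% had an unadjusted p under 0.05 in edgeR and DESeq2 called 5.96%. Of 36 further imprinted genes, 35 were in the table and 24 could be tested in the paired test, of which edgeR called 0 (2 at an unadjusted p under 0.05) and DESeq2 called 2, PPP1R9A and LIN28B, an RNA-binding protein that blocks let-7 maturation and was named after its values were seen. The largest mean changes in 1 direction were those of SLC22A3, with 0 and 6 reads in H460, 5330 and 8078 in A549, and 0 and 9 in H1299, of WT1, with 8 and 0 reads in H460, 203 and 220 in A549, and 268 and 163 in H1299, and of PPP1R9A, given above. Of 18 factors that set, keep or erase imprints, 15 could be tested, of which edgeR called 0 (7 at an unadjusted p under 0.05) and DESeq2 called 1, DNMT3B. ZFP57, DNMT3L and DPPA3 had 0 reads in all 6 libraries. DNMT3B, a de novo DNA methyltransferase, had log2 fold changes of 0.62, 0.65 and 1.04 (edgeR adjusted p = 0.10). KDM1B, a histone demethylase needed for maternal imprints in the oocyte, had -0.72, -0.16 and -0.77 (0.19), and UHRF1, which brings DNMT1 to newly replicated DNA, had -0.13, -0.91 and -0.56 (0.21). DNMT1 itself, the maintenance DNA methyltransferase, had -0.16, -0.66 and -0.30 (0.26), and was added to the named genes after its values were seen.

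Of 14 genes that act with IGF2 as ligands, receptors, adaptors and binding proteins, 13 could be tested, of which edgeR called 0 (2 at an unadjusted p under 0.05) and DESeq2 called 1, INSR. The shares of all genes were 15% at that unadjusted p and 5.96% with DESeq2. INSR, the insulin receptor, which also binds IGF2, had log2 fold changes of -0.50, -0.69 and -0.75 (edgeR adjusted p = 0.098), IGFBP6, a binding protein that prefers IGF2, had 0.12, 0.38 and 0.11 (0.52), and IRS1, an adaptor of both receptors, had 0.15, 0.21 and 0.15 (0.54). IGF1 had 4 reads in 1 library and 0 in the other 5, so that IGF2 was the ligand of the pair with reads in each line. IGF2BP1, an RNA-binding protein of IGF2 mRNA, was named after its values were seen. It had 23 and 11 reads in H460, 3248 and 5798 in A549, and 9045 and 14005 in H1299, the same order of lines as IGF2. Of the other genes of the list, IGF2BP2 had this order too. IGF1R, IRS1, IRS2, IGFBP1, IGFBP2, IGFBP3, IGFBP4 and IGFBP6 were lowest in H1299, and INSR, IGFBP5 and IGF2BP3 had other orders. These orders were also looked at after the values were seen, and none was tested against that of IGF2.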

How the data were processed

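Total RNA of 6 cultures was sequenced after removal of ribosomal RNA with a stranded kit. Per the labels' processing notes, the authors trimmed the reads with Trimmomatic and used HISAT2 2.1.0 and StringTie 1.3.4b. The methods name hg38 and another StringTie version, and whether counting used the strand is not stated in the sources used here. The deposited read counts are whole numbers per gene and are not normalized, and in the deposited TPM the authors took account of transcript length and library size. Another 18 columns of values from other samples and 6 FPKM columns were not used. Gene positions and exon overlaps come from the deposited NCBI annotation on GRCh38, release 109.20200522, and promoters from RefSeq.

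The counts were tested with edgeR 4.0.16 (TMM, quasi-likelihood test, Benjamini-Hochberg adjustment over all genes tested, adjusted p under 0.05) in an additive model of cell line and treatment. The treatment effect was tested over 19122 genes kept by filterByExpr by treatment, and the line contrasts over 21771 genes kept by the design. Control and si-MALAT1 libraries were paired because both come from the same cell line. The p-values rest on the spread left in these 6 libraries after cell line and treatment, not on a spread between cultures of a line. In counts simulated from these libraries, the paired test recovered 90.5% of 200 genes changed 4-fold among 20057 genes, with 6.7% false calls, and the contrast of H1299 with H460 recovered 83.5% among 20746 genes, with 7.2% false calls. The simulated lines had the same mean level of a gene apart from these changes, which were put into genes with a mean of at least 50 counts. Recovery of smaller changes, such as those of MEST and PEG10 in the paired test, was not simulated. Changes within a line used RLE size factors, a pseudocount of 1 and exact 95% Clopper-Pearson intervals, which cover counting error only. A gene with 0 reads in a line was given a floor of 3 counts over its 2 libraries.

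Alternatives were DESeq2 1.42.0, limma 3.58.1 on log2(TPM + 1), RLE or TMM scaling, a pseudocount of 10, no filters, no block and leaving out each line. The genes, the further lists and the tests were chosen with earlier results of these data known. Values per library were given for genes with a mean of at least 50 reads, and from each further list the 3 genes with the largest mean change in 1 direction in the 3 lines were named, under the same minimum. R 4.3.3 and Python 3.11.15 were used.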

Additional observations from a re-analysis of the deposited data

Results flagged for a closer look

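SNRPN was the imprinted gene that passed a fold change of 1.5 in opposite directions in different lines, with at least 50 reads on average and a counting interval that excludes 0 in both. Its log2 fold change after si-MALAT1 was 2.136 in H460 and -0.6568 in A549, with 1 library per line and condition, and the difference between the lines was not tested. With the reads of SNURF and SNHG14, which share exon bases with SNRPN in the same orientation, the sum changed by 0.19 in H460 and 0.09 in A549 on the log2 scale. With SNURF alone added, the changes were 1.98 and -0.56.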

How the results depend on the processing

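With the cell line as a block, the paired test called 1 gene, MALAT1, of all genes tested. The count was 0 without the replicate block, 0 without a filter on low counts, 0 with a filter set by the design, which was chosen after seeing the data, and 1140 with DESeq2. Leaving out 1 line at a time gave 0 to 163 genes, the 163 being found without H460 and the 0 without H1299 and without A549. Of the imprinted genes, 0 were called by the paired test and 2 by DESeq2, MEST and PEG10, and the replicate block changed no call of an imprinted gene.

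With log2(TPM + 1), the imprinted genes past a fold change of 1.5 numbered 0 in place of 3 for higher in H460, 0 in place of 3 for lower in A549, and 0 in place of 1 for higher in all 3 lines. Without the filter on zeros they numbered 5 higher and 5 lower in H460, 11 higher in H1299 and 5 lower in A549. The added genes included SNRPN and SNURF for higher in H460, MEG3 and NDN for higher in H1299 and SNRPN for lower in A549. The others rest on few reads. For lower in H460 they were H19 (5 and 2 reads), MEG8 (1 and 0) and MESTIT1 (4 and 0). For higher in H1299 they were MEG9 (4 and 9), MAGEL2 (5 and 12) and MESTIT1 (2 and 11), and for lower in A549 KCNQ1 (22 and 5). Shares of all genes without this filter are not given here, so these counts are not set against them. A pseudocount of 10 left 0 lower in H460 in place of 2. Over 2 lines in place of 3, the genes higher in all of them numbered 2 to 2 and those lower 0 to 1, 1 being found without H1299. None of these results, of the line differences or of the paired changes of single imprinted genes reversed its direction under an alternative run. Small changes within a line could differ in direction as TPM. In H460, such genes were BLCAP, ZDBF2 and UBE3A, higher by 0.06, 0.01 and 0.05 on the log2 scale of scaled counts. Their TPM went from 11.6 to 11.1, from 6.79 to 6.08 and from 23.5 to 19.5. For single genes, 383 values kept their side of the threshold or their interval, 10 line differences fell short of the threshold (adjusted p of 0.050 to 0.20), 2 passed it with DESeq2 and 8 changes within a line moved past their counting interval.

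With 2 residual degrees of freedom and 1 library per line and condition, the spread between cultures of a line was not measured, and genes near 0 reads are limited by depth.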
